A study of Mus musculus with 20 samples.

Results

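Marker genes of Kupffer cells, the resident macrophages of the liver, were followed through RNA-seq of whole mouse liver. The 10 genes were chosen by symbol (Clec4f, Vsig4, Timd4, Marco, Cd5l, Adgre1, C1qa, C1qb, C1qc and Csf1r). All 10 were found among the 46095 genes of the deposited count table, and all 10 passed the low-count filter that 14440 genes passed. The livers came from 20 mice, 5 in each of 4 groups: wild-type mice on a Chow diet (WT chow), wild-type mice on a NASH diet (WT NASH), Pck1-cKO mice on chow (KO chow) and Pck1-cKO mice on the NASH diet (KO NASH). NASH stands for non-alcoholic steatohepatitis, and Pck1 encodes the cytosolic enzyme that makes phosphoenolpyruvate for gluconeogenesis. Mice were 31 to 33 weeks old after 24 weeks on their diet. The strain, the Cre driver, the cells in which Pck1 was deleted and the composition of the NASH diet were not given in the sources used here. These comparisons ask how the diet and the loss of Pck1 bear on the markers.

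Kupffer cells line the sinusoids, where they clear bacteria, dying cells and immune complexes from the blood. Those seeded before birth renew themselves in place, and monocytes from the blood can take over emptied niches. Newly arrived cells gain most of the resident programme within weeks and Timd4 late, so Timd4 is used to mark long-resident cells, while Clec4f, a lectin that binds galactose-bearing glycans, marks mouse Kupffer cells in general. Vsig4 is a receptor for complement C3 fragments, Marco a scavenger receptor, and Timd4 a receptor for phosphatidylserine on dying cells. Cd5l is a secreted scavenger-receptor protein, and C1qa, C1qb and C1qc are the chains of C1q, which starts the classical complement pathway. Adgre1 encodes F4/80, a surface antigen of most mouse macrophages, and Csf1r the receptor for the survival factors Csf1 and Il34.

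Levels are given as CPM, the library's counts scaled by edgeR to a common total with TMM-adjusted library sizes. Each gene was placed by symbol in GENCODE M21 on GRCm38. The C1q genes lie side by side on chromosome 4: C1qb at 136880129 to 136886187, C1qc at 136889804 to 136893065 and C1qa at 136895917 to 136898803, all on the minus strand. Clec4f lies on chromosome 6, 83644542 to 83656187, minus strand, and Timd4 on chromosome 11, 46810800 to 46844332, plus strand. Vsig4 lies on chromosome X, 96247203 to 96293438, minus strand. Per kilobase of exonic length, the mean level over the 20 libraries was highest for Cd5l, at 92.8 ± 50.9 CPM per kilobase (SD, n = 20), followed by C1qa at 92.3 ± 70.8 and C1qb at 85.8 ± 77.0. Vsig4 at 56.4 ± 38.7, Clec4f at 55.9 ± 19.5 and C1qc at 48.6 ± 41.1 came next. Marco (19.2 ± 28.0), Adgre1 (12.6 ± 9.98), Csf1r (12.4 ± 4.17) and Timd4 (6.09 ± 3.96) were the lowest. Each neighbouring pair in this order differed by less than the SD of either gene, except C1qc and Marco, whose gap exceeded the SD of Marco alone, and Csf1r and Timd4, whose gap exceeded both SDs.

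Promoters are shown for 2 sets of markers: Vsig4, C1qb and C1qc, whose levels moved together across the livers, and Clec4f and Timd4, whose ratio differed between groups. The sequences are those of RefSeq on GRCm38.p6, from 250 bases before to 50 after the start of the gene, and 7 of the 10 markers were matched. Capitals mark 2 motifs, searched on both strands: GAGGAA, the core of the site bound by the myeloid factor PU.1 (as its reverse complement on the other strand), and TGCTGA, a half-site of MAF factors (likewise). No match of one overlapped a match of the other. GAGGAA on either strand occurs in 28.3% and TGCTGA in 19.5% of 32851 promoters of 300 bases. The windows are Vsig4 at chrX:96293389-96293688, minus strand, C1qb at chr4:136886151-136886450, minus strand, C1qc at chr4:136892865-136893164, minus strand, Clec4f at chr6:83656067-83656366, minus strand, and Timd4 at chr11:46810549-46810848, plus strand, each written 5′ to 3′ on the strand of its gene.
Vsig4: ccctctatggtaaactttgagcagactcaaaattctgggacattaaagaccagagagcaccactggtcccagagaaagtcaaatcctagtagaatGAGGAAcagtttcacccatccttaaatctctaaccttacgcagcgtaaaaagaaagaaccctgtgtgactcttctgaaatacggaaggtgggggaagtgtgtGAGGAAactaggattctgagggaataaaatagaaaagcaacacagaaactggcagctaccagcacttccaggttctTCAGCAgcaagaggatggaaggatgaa
C1qb: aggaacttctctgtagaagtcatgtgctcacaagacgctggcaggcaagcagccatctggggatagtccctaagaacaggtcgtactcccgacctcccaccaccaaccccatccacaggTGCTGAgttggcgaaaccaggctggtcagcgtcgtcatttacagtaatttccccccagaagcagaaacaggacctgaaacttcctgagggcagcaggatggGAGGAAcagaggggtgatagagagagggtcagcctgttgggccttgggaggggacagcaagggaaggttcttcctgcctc
C1qc: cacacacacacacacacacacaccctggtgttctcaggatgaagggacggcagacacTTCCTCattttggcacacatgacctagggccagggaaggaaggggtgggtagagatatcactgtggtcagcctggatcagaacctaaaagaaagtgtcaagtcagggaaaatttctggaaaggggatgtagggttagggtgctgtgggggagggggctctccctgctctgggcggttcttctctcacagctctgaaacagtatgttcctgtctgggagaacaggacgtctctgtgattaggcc
Clec4f: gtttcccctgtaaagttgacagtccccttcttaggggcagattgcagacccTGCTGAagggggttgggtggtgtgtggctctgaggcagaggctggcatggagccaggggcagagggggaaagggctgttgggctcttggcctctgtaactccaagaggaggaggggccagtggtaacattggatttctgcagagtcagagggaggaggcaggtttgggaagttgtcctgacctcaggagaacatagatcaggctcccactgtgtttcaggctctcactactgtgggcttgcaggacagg
Timd4: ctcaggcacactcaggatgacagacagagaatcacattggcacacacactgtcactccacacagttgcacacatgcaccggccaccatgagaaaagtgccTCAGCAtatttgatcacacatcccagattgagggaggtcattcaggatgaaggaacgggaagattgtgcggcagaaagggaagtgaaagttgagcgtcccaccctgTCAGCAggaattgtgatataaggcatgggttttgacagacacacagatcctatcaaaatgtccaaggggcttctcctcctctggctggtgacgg
GAGGAA was found 2 times in the Vsig4 window and 1 time each in those of C1qb, C1qc, Marco and Cd5l, and not in those of Clec4f or Timd4. TGCTGA was found 2 times each in Timd4 and Cd5l, 1 time each in Clec4f, Vsig4 and C1qb, and not in C1qc or Marco. A match is a run of letters and shows no binding.

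The libraries held 9958935 to 20601955 counts, and every marker was detected in every library, with 40 (Marco) to 7098 (Cd5l) counts. Pck1 was lower in both Pck1-cKO groups (log2 fold change -2.51 on chow and -2.36 on the NASH diet, edgeR adjusted p = 0.00011 and 6.13e-05). Hepatocyte genes were abundant in every library (Alb, Apoa1 and Ttr at 40500 to 112500 CPM in sum). Y-linked genes and Xist gave 13 males and 7 females: WT chow held 5 males, WT NASH 1 male (replicate 4), KO chow 3 males (females in replicates 3 and 5) and KO NASH 4 males (female in replicate 2). Libraries also differed in the way that expression depended on gene length. For each gene, log2 CPM was taken as its difference from the gene's mean over the 20 libraries. The slope of this difference on log2 exonic length was fitted in each library over 9499 genes. Its sign places a library relative to the average of the 20 libraries. The slope was -0.34 to -0.25 in 6 libraries (WT chow replicates 3, 4 and 5, WT NASH replicate 4, KO chow replicates 4 and 5). It was 0.01 to 0.19 in the other 14, which include all 5 of KO NASH. The labels name no batch that would match this split. In whole liver, fewer Kupffer cells and less marker RNA per cell cannot be told apart.

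Marker levels varied widely between mice of one group and least in KO NASH. The coefficient of variation over 5 libraries had a median over the 10 markers of 80.1% in WT chow, 55.1% in WT NASH and 69.8% in KO chow, and of 15.3% in KO NASH. Over all 14440 genes the medians were 37.6%, 29.3%, 36.6% and 18.5% in that order. KO NASH was also the only group without a library of negative length slope, and the part of this in the spread was not tested. The summed level of the 10 markers was 362 to 1864 CPM in WT chow, 569 to 1540 CPM in WT NASH, 555 to 1925 CPM in KO chow and 411 to 553 CPM in KO NASH. All 5 KO NASH libraries lay below every WT NASH and every KO chow library on this sum, and 1 WT chow library, replicate 1 at 362 CPM, was lower still.

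**Figure D1:**
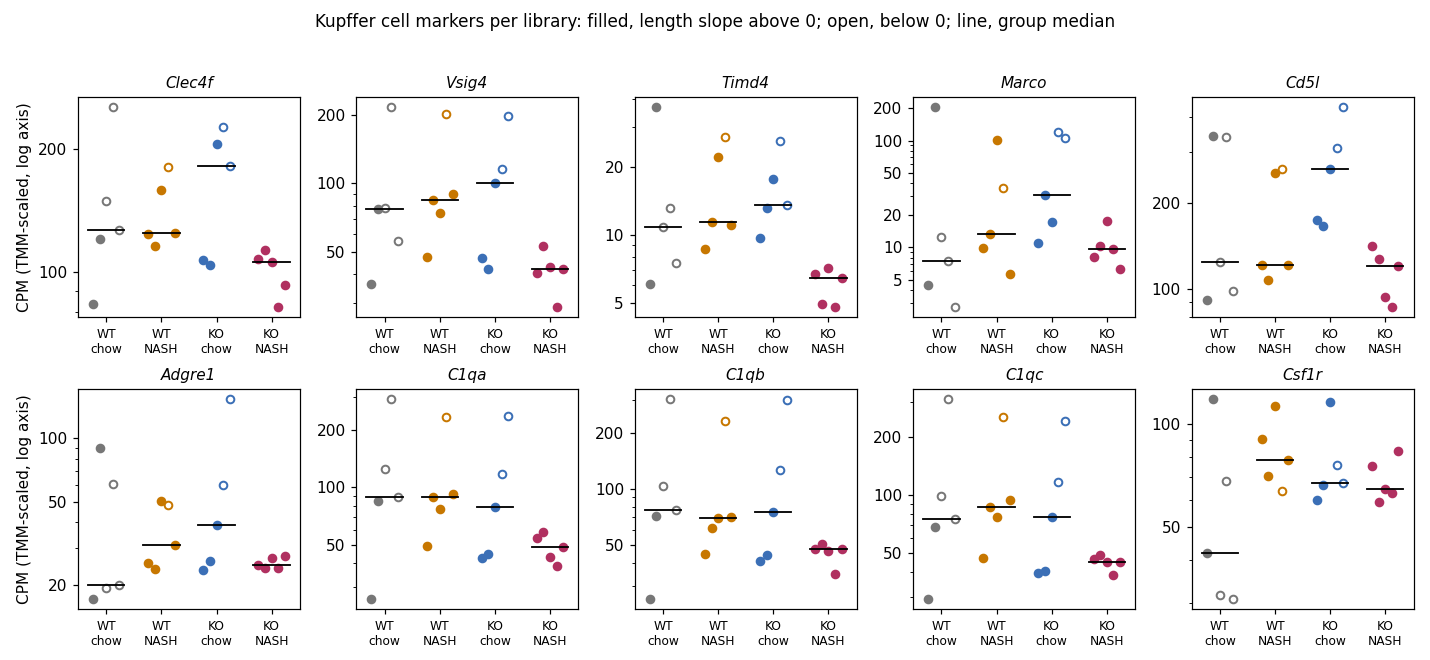
Level of each marker in each of the 20 libraries, by group, in TMM-scaled CPM on a log axis. Points are single mice, filled where the length slope is above 0 and open where it is below 0, and lines are group medians; the KO NASH points lie close together, in the lower part of the range for most markers and in mid-range for Csf1r, and the highest C1qa, C1qb, C1qc and Vsig4 points are open.

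The C1q chains and Vsig4 were the markers that differed most between libraries of negative and of positive length slope. The median of C1qb was 179 CPM in the 6 libraries of negative slope and 47.4 CPM in the 14 of positive slope, a ratio of 3.78. C1qc gave 178 and 47.2 CPM (ratio 3.77), C1qa 180 and 51.8 CPM (3.48) and Vsig4 157 and 47.3 CPM (3.31). For C1qa the 2 sets of libraries overlapped narrowly, at 89.0 to 291 CPM and 25.9 to 92.3 CPM. The ratio was 2.32 for Cd5l, 2.27 for Marco, 2.09 for Adgre1, 1.64 for Clec4f, 1.46 for Timd4 and 0.894 for Csf1r. The mRNAs differ in exonic length, from 1040 bases for C1qa and 1088 for C1qb to 5774 for Csf1r, which had the lowest ratio. Length did not order all the markers, since C1qc, of 1931 bases, had a higher ratio than Marco, of 1925, and than Vsig4, of 1484. These values are a description; the 6 libraries belong to 3 of the 4 groups, so both KO NASH comparisons are also given over the 14 others.

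**Figure D2:**
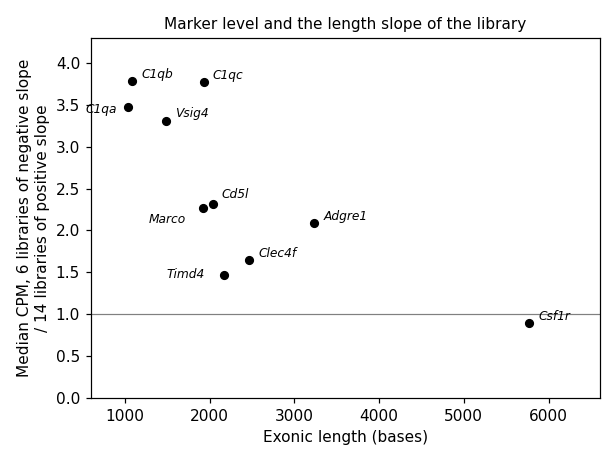
Median CPM in the 6 libraries of negative length slope divided by that in the other 14 (vertical axis), against the exonic length of the gene in bases (horizontal axis), 1 point per marker. The grey line marks equal medians; C1qb, C1qc, C1qa and Vsig4 lie at 3.31 to 3.78 and Csf1r, the longest, at 0.894.

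The first comparison, KO NASH with WT NASH, sets the 2 genotypes side by side on the NASH diet. Of the 10 markers 1, Timd4, was called lower by edgeR's quasi-likelihood test (Benjamini-Hochberg adjusted p under 0.05), where 4.74% of all genes tested were called lower and 9.65% were called in either direction. All 10 markers had a negative log2 fold change, against 49.7% of all genes, and their median was -1.12 against 0.004 for all genes. Several markers moved together across libraries, so the 10 signs, here and in the comparisons below, are not independent. At an unadjusted p under 0.05, 4 markers were lower (Timd4, Vsig4, C1qc and C1qa), against 13.8% of all genes. DESeq2 called 2 lower, Timd4 and Vsig4 (15.2% of all genes by DESeq2 in either direction). For 2 markers, Timd4 and Clec4f, all 5 KO NASH libraries lay below all 5 WT NASH libraries, which held for 6.44% of all genes.

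Timd4 was the 1 marker that edgeR called over the 20 libraries. It was at 8.65, 11.4, 22.2, 27.2 and 11 CPM in WT NASH replicates 1 to 5 and at 6.74, 4.92, 7.14, 4.79 and 6.44 CPM in KO NASH. It was at 6.04, 36.8, 10.8, 13.2 and 7.48 CPM in WT chow and 9.68, 13.1, 17.6, 25.9 and 13.6 CPM in KO chow. The KO NASH libraries lay below every WT NASH and every KO chow library, while WT chow replicate 1 lay among them and WT chow replicate 2 was the highest of all. The means were 16.1 ± 8.12 CPM in WT NASH and 6.0 ± 1.08 CPM in KO NASH (SD, n = 5 each), with a log2 fold change of -1.42 (edgeR adjusted p = 0.0408, SE 0.426). The call is near the threshold: it held in 17 of 30 other settings, with edgeR or DESeq2 adjusted p of 0.00956 to 0.112. It was lost without WT NASH replicate 4 (-1.15, edgeR adjusted p = 0.112), 2 or 3, without any 1 KO NASH library, and with KO NASH replicates 1 and 5, the most alike pair of libraries within a group, summed into 1 sample (edgeR adjusted p = 0.0773). It was also lost once sex was a term (-1.64, edgeR adjusted p = 0.0504), in males alone (-2.09, edgeR adjusted p = 0.0629), where WT NASH is the single library of replicate 4, with the replicate number in the model, and over the 14 libraries of positive length slope. The call held with the length slope as a term, alone or together with sex. The log2 fold change stayed between -2.09 and -1.15 throughout. Among females alone the 1 KO NASH library, at 4.92 CPM, lay below the 4 WT NASH libraries at 8.65 to 22.2 CPM.

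Vsig4 was at 47.6, 85.0, 73.9, 203 and 90.3 CPM in WT NASH and 40.3, 53.2, 43.2, 28.7 and 42.2 CPM in KO NASH. Only WT NASH replicate 1 fell within the KO NASH range, and replicate 4, of negative slope, was far above the rest. The log2 fold change was -1.26 (edgeR adjusted p = 0.0943, SE 0.471). Vsig4 was at 36.2, 76.9, 78.1, 216 and 55.7 CPM in WT chow and 47.0, 42.2, 101, 116 and 197 CPM in KO chow. In both chow groups some libraries lay within the KO NASH range and others up to several times above it.

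Clec4f, the most cell-restricted of the markers, was at 124, 116, 159, 180.4 and 125 CPM in WT NASH and 107, 113, 106, 82.1 and 92.7 CPM in KO NASH. The groups did not overlap, but only narrowly, the highest KO NASH library being 113 CPM and the lowest WT NASH library 116 CPM. The log2 fold change was -0.49 (SE 0.27) and was not called (edgeR adjusted p = 0.266). On chow it was at 83.7, 120.2, 149, 253 and 127 CPM in WT and 107, 104, 206, 226 and 182 CPM in KO. WT chow replicate 1 and KO chow replicates 1 and 2 lay between the lowest and highest KO NASH libraries, and the other chow libraries ran from 120.2 to 253 CPM.

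The scavenger receptor Marco was the most variable marker. It was at 4.44, 205, 12.4, 7.41 and 2.77 CPM in WT chow, a range of 74.1-fold, with replicate 2 far above the rest. It was at 9.94, 13.2, 102, 35.9 and 5.62 CPM in WT NASH, 11, 31.0, 17.4, 120.3 and 107 CPM in KO chow and 8.19, 10.3, 17.6, 9.58 and 6.30 CPM in KO NASH. The KO NASH libraries lay closer together and overlapped every other group. Against WT NASH the log2 fold change was -1.69 with an SE of 1.02 (edgeR adjusted p = 0.315).

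None of the secreted proteins was called by edgeR. Cd5l was at 121, 108, 253, 263 and 121 CPM in WT NASH and 141, 127, 93.6, 86.4 and 120.1 CPM in KO NASH, with a log2 fold change of -0.61 (edgeR adjusted p = 0.35, SE 0.394). WT NASH replicates 1, 2 and 5 lay among the KO NASH libraries and replicates 3 and 4 above them. C1qa was at 49.5, 88.7, 77.0, 235 and 92.3 CPM in WT NASH and 54.1, 58.2, 43.1, 38.8 and 48.5 CPM in KO NASH, C1qc at 47.4, 86.5, 76.6, 252 and 94.0 and 47.0, 49.2, 45.1, 38.9 and 45.1 CPM. For both, WT NASH replicate 1 lay within the KO NASH range, replicates 2, 3 and 5 above it, and replicate 4 far above. The log2 fold changes were -1.30 for C1qc (SE 0.563), -1.16 for C1qa (SE 0.534) and -1.08 for C1qb (SE 0.592), with edgeR adjusted p of 0.148, 0.176 and 0.263.

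Neither of the general macrophage genes was called. Adgre1 was at 25.5, 24.0, 50.3, 48.2 and 30.9 CPM in WT NASH and 25.1, 24.0, 27.1, 24.1 and 27.6 CPM in KO NASH, and Csf1r at 90.5, 70.5, 113, 63.6 and 78.2 and 75.5, 59.2, 64.7, 63.0 and 83.4 CPM. The groups overlapped for both genes. The log2 fold changes were -0.48 for Adgre1 (SE 0.49) and -0.27 for Csf1r (SE 0.305), with edgeR adjusted p of 0.577 and 0.63. Csf1r ran from 59.2 to 83.4 CPM in KO NASH and from 63.6 to 113 CPM in WT NASH. Its value was positive in males alone, 0.20 (edgeR adjusted p = 0.836), with 1 male in WT NASH.

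KO NASH was then compared with KO chow for the effect of the diet without Pck1. This comparison uses the same KO NASH libraries as the one above, so its values stand beside those and are no separate evidence of low KO NASH levels. By edgeR, 0 of the 10 markers were called, where 3.29% of all genes were, and DESeq2 called 2, Timd4 and Cd5l (9.04% of all genes by DESeq2). All 10 had a negative log2 fold change (51.7% of all genes), with a median of -1.24 (-0.02 for all genes), and 8 were lower at an unadjusted p under 0.05 (11.9% of all genes), the exceptions being C1qa and Csf1r. The KO NASH libraries of Timd4 and Cd5l lay below all 5 KO chow libraries, as did those of 4.31% of all genes.

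Timd4 had a log2 fold change of -1.41 (edgeR adjusted p = 0.071, SE 0.425), on the other side of the threshold from its value against WT NASH and of nearly the same size. Over the other settings its edgeR or DESeq2 adjusted p ran from 0.0155 to 0.234, and it was called in 5 of 30. Cd5l was at 174, 166, 263, 311 and 431 CPM in KO chow, all above the KO NASH maximum of 141 CPM, and had a log2 fold change of -1.24 (edgeR adjusted p = 0.0866, SE 0.398). In WT chow Cd5l was at 91.8, 343, 124, 340.3 and 98.5 CPM, with replicates 1, 3 and 5 within the KO NASH range.

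Adgre1 was at 23.5, 26.2, 38.5, 59.7 and 154 CPM in KO chow, where replicate 5 stood alone and replicates 1 and 2 lay at or just beside the KO NASH range. Its log2 fold change was -1.24 (edgeR adjusted p = 0.153, SE 0.495). C1qb was at 40.7, 43.9, 74.5, 126 and 298 CPM in KO chow, from within the KO NASH range to several times above it, and at 44.6, 61.3, 69.6, 232 and 70.6 CPM in WT NASH and 47.5, 50.6, 46.2, 34.9 and 47.2 CPM in KO NASH. The log2 fold changes against KO chow were -1.36 for C1qb (SE 0.595), -1.19 for C1qc (SE 0.561) and -1.10 for C1qa (SE 0.533), with edgeR adjusted p of 0.185, 0.218 and 0.23. Vsig4 had -1.28 (SE 0.471), Clec4f -0.72 (SE 0.271) and Marco -2.46 (SE 1.05), with edgeR adjusted p of 0.126, 0.132 and 0.174. Csf1r was at 60.1, 66.4, 116, 75.8 and 67.0 CPM in KO chow and had -0.16 (edgeR adjusted p = 0.779, SE 0.305), which was 0.04 without KO chow replicate 3 and 0.08 in males alone.

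When only the 14 libraries of positive length slope were fitted, a setting chosen after the data were seen, some values shrank more than others. Timd4 stood at -1.15 against WT NASH and -1.17 against KO chow, and was not called (edgeR adjusted p = 0.0533 and 0.101). Against WT NASH, Vsig4 at -0.84 and C1qc at -0.76 were called lower (edgeR adjusted p = 0.0498 and 0.0487), where 20.3% of 15262 genes were called, so that 2 of 10 markers is close to the share of all genes. In that comparison Marco (-1.66), Clec4f (-0.38) and Csf1r (-0.35) stood near their values over 20 libraries, and Cd5l (-0.41), Adgre1 (-0.35), C1qa (-0.66) and C1qb (-0.44) were closer to 0. Against KO chow, the values of the C1q chains and Adgre1 shrank to -0.19 for C1qa, -0.23 for C1qb, -0.22 for C1qc and -0.20 for Adgre1. Cd5l gave -0.82, Vsig4 -0.61, Clec4f -0.47 and Marco -0.94 in the same comparison, where 0 of 10 markers and 7.69% of genes were called (edgeR adjusted p of the markers 0.101 to 0.775). The median of the markers was -0.55 against WT NASH and -0.35 against KO chow, compared with -1.12 and -1.24 over 20 libraries.

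**Figure D3:**
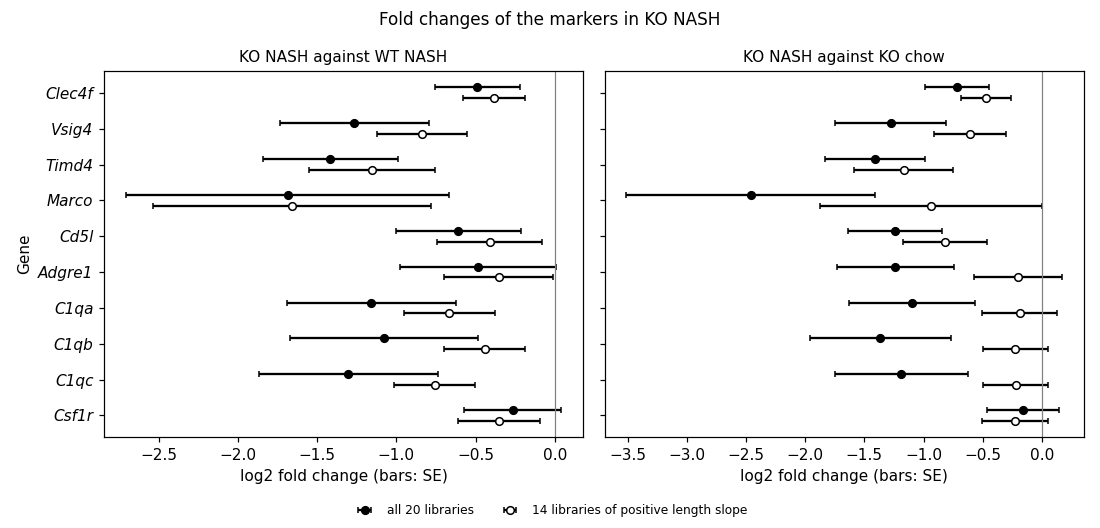
log2 fold change of each marker (horizontal axis) in KO NASH against WT NASH (left) and against KO chow (right), with filled points for all 20 libraries and open points for the 14 of positive length slope; bars are standard errors. All points are below 0; the C1q chains and Adgre1 move from between -1.36 and -1.10 to between -0.23 and -0.19 on the right, while Timd4 moves from -1.42 to -1.15 on the left and from -1.41 to -1.17 on the right.

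Diet in WT mice and genotype on chow left the markers without a call. In WT NASH against WT chow, edgeR called 0 of 10 (5.93% of all genes), 0 reached an unadjusted p under 0.05 (22.1% of all genes), and DESeq2 called 0 (10.4% of all genes). The log2 fold changes ran from -0.48 to 0.51 with a median of -0.13, and the groups overlapped for every marker. In KO chow against WT chow, edgeR also called 0 of 10 (5.53% of all genes), with 0 at an unadjusted p under 0.05 (19.4% of all genes) and 0 by DESeq2 (9.63% of all genes). The range was -0.25 to 0.54 and the median 0.15. In the diet comparison the SE was 0.27 for Clec4f and 0.993 for Marco.

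Single values here rested on WT chow replicate 2. It held 118 CPM of Csf1r, where the other WT chow libraries held 30.8 to 68.3 CPM and WT NASH 90.5, 70.5, 113, 63.6 and 78.2 CPM. The Csf1r difference of WT NASH from WT chow was 0.51 (edgeR adjusted p = 0.328, SE 0.306) and became 0.95 (edgeR adjusted p = 0.0302) without that library. Marco, at 205 CPM in it, differed by 0.29 (edgeR adjusted p = 0.903, SE 0.989) between KO chow and WT chow, and by 3.10 (edgeR adjusted p = 0.0401) without it. Marco in WT NASH against WT chow went from -0.48 (edgeR adjusted p = 0.808) to 2.32 (edgeR adjusted p = 0.0812) without that library. The same library was the highest of its group for Timd4, Marco, Cd5l, Adgre1 and Csf1r and the second lowest for C1qa, C1qb and C1qc.

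The interaction asks whether the genotype difference changed with the diet. By edgeR, 0 markers were called (0.139% of all genes), while 2, Timd4 and Vsig4, had an unadjusted p under 0.05 in the negative direction (4.01% of all genes), and DESeq2 called 0 (1.31% of all genes). All 10 values were negative (53.2% of all genes), with a median of -1.06. Timd4 had -1.51 (edgeR adjusted p = 0.451, SE 0.593) and Vsig4 -1.39 (edgeR adjusted p = 0.602, SE 0.659). A larger genotype difference on the NASH diet than on chow was therefore not shown for any marker.

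Within-library ratios of 2 markers do not depend on library scaling and compare Kupffer genes with each other. Timd4 counts were 6.99, 9.86, 13.9, 15.1 and 8.86% of Clec4f counts in WT NASH and 9.02, 12.6, 8.57, 11.5 and 7.48% in KO chow. In KO NASH they were 6.27, 4.33, 6.76, 5.84 and 6.94%, below both groups in all 5 libraries, though the highest KO NASH library nearly met the lowest WT NASH library. In WT chow they were 7.22, 30.6, 7.27, 5.21 and 5.90%, a range that overlaps that of KO NASH and reaches far above it. The mean log2 ratio was -4.07 ± 0.273 in KO NASH, -3.25 ± 0.460 in WT NASH and -3.37 ± 0.308 in KO chow (SD, n = 5 each). KO NASH differed from WT NASH by -0.82 and from KO chow by -0.69, each with p = 0.00794 by a two-sided exact permutation test, the smallest p that 5 against 5 can give (adjusted p = 0.0317 over 8 ratio tests). These 2 tests share the KO NASH libraries. WT NASH differed from WT chow by 0.27 and KO chow from WT chow by 0.15 (adjusted p = 0.929 for each, exact permutation test). Without any 1 KO NASH library both KO NASH differences had an adjusted p of 0.0635 by the exact permutation test of 4 against 5. Without WT chow replicate 2 the KO chow difference from WT chow was 0.60 (adjusted p = 0.0423, exact permutation test). Over the 14 libraries of positive slope the KO NASH differences were -0.69 and -0.73, with adjusted p of 0.0635 and 0.0714 by the exact permutation test on fewer libraries. KO NASH still lay wholly below both groups there, so each unadjusted p was the smallest that its number of libraries can give. The 2 genes are of similar length, 2173 and 2471 bases.

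**Figure D4:**
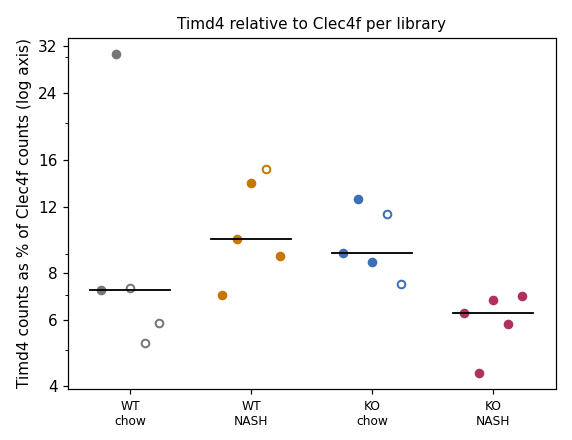
Timd4 counts as a percentage of Clec4f counts in each library (vertical log axis), by group; points are single mice, filled where the length slope is above 0 and open where it is below 0, and lines are group medians. The 5 KO NASH libraries lie at 4.33 to 6.94%, below all of WT NASH and KO chow and overlapping WT chow.

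Clec4f relative to Adgre1, a cell-restricted against a general macrophage gene, did not separate the groups. The log2 ratio was 1.96 ± 0.211 in KO NASH, 2.02 ± 0.260 in WT NASH, 2.07 ± 0.985 in WT chow and 1.75 ± 0.865 in KO chow (SD, n = 5 each). The 4 differences between groups lay between -0.32 and 0.21, with adjusted p of 0.929 each by the exact permutation test. KO chow replicate 5, at 0.24, and WT chow replicate 2, at 0.41, were the 2 libraries in which Adgre1 came near Clec4f. KO chow replicate 5 also held 55.9 CPM of Spic, a factor of iron-handling macrophages, and 34.2 CPM of Chil3, a gene of monocytes and alternatively activated macrophages. No other library exceeded 11.2 CPM of Spic or 3.83 CPM of Chil3.

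The C1q chains and Vsig4 moved together across mice. Over the 14 libraries of positive slope, log2 CPM of C1qa correlated with C1qc (Pearson r = 0.972, Spearman rho = 0.969, r = 0.966 without the 2 farthest libraries) and with C1qb (r = 0.965, rho = 0.925, 0.942 without the 2). The permutation p of both r values was 1e-05, the smallest that 100000 permutations can give, and 0.00015 adjusted over 45 pairs. Vsig4 followed C1qc (r = 0.923, rho = 0.903, 0.902 without the 2, adjusted permutation p of r = 5e-04). Clec4f followed Vsig4 (r = 0.818, rho = 0.890, 0.795 without the 2, adjusted permutation p of r = 0.00045). Marco correlated with Timd4 (r = 0.836, rho = 0.719, adjusted permutation p of r = 0.00138), but r fell to 0.506 without the 2 farthest libraries, and with C1qc r was 0.370 (rho = 0.279, adjusted permutation p of r = 0.193). Over the 6 libraries of negative slope, r was 0.991 for C1qa with C1qc, 0.978 for C1qa with C1qb and 0.977 for Vsig4 with C1qc (adjusted exact permutation p of 0.05, 0.0521 and 0.0469). The points mix groups and sexes, and the genes of 1 library share its scaling.

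Of 11500 other genes whose mean was 1 CPM or more, those most like Clec4f over the 20 libraries were Folr2 (r = 0.934), Fcna (0.881), Fcgr4 (0.872), Klrk1 (0.871) and Lilra5 (0.870). Over the 14 libraries of positive slope the same genes gave r of 0.865, 0.889, 0.699, 0.792 and 0.892. Those most like C1qa were Cd300c2 (r = 0.975), Tfec (0.969), Cd53 (0.967), Cmtm7 (0.962) and Srgn (0.957), with 0.924, 0.883, 0.928, 0.855 and 0.824 over the 14. Folr2 encodes a folate receptor and Fcna a ficolin of macrophages, Cd53 a tetraspanin of leukocytes in general, and Srgn the proteoglycan core serglycin of blood cells.

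Other genes of the Kupffer programme gave few calls. Which cells of the whole liver made their RNA was not tested. Of 10 further Kupffer genes (Fcna, Cd163, Folr2, Slc40a1, C6, Clec1b, Il18bp, Cdh5, Hmox1 and Spic), edgeR called 1 lower in KO NASH against WT NASH (4.74% of all genes), with 8 of 10 negative and a median of -0.77. This was Slc40a1, the iron exporter ferroportin, at 129, 154, 201, 191 and 182 CPM in WT NASH and 93.2, 85.4, 105, 104 and 77.6 CPM in KO NASH. The groups did not overlap, and the log2 fold change was -0.88 (edgeR adjusted p = 0.0322, SE 0.253). The call held in 18 of 30 other settings (adjusted p of 0.00522 to 0.14) and was lost once sex was a term (edgeR adjusted p = 0.0869). With sex and length slope terms together the Slc40a1 call held. Against KO chow 1 was called lower, Spic (-3.05, edgeR adjusted p = 0.0324, SE 0.738), where 3.29% of all genes were called in either direction. The median was -0.90 with 8 of 10 negative. Spic was at 2.78, 3.30, 4.41, 10.3 and 55.9 CPM in KO chow and 2.17, 1.62, 1.61, 2.20 and 1.59 CPM in KO NASH, with KO chow replicate 5 far above the rest. The call rested on single libraries: it held in 16 of 30 settings, and without KO chow replicate 5 the value was -1.52 (edgeR adjusted p = 0.131). DESeq2 called Fcna and Folr2 lower beside Spic against KO chow (9.04% of all genes in either direction), and Slc40a1 alone against WT NASH (15.2%). C6 split by sex, at 17.15 to 38.99 CPM in females and 57.79 to 419.6 CPM in males over all libraries. At an unadjusted p under 0.05, 4 of the 10 were lower against WT NASH, where 13.8% of all genes were, and 5 against KO chow, where 11.9% were. In WT NASH and KO chow against WT chow 0 were called by edgeR (5.93% and 5.53% of all genes) or DESeq2 (10.4% and 9.63%). At an unadjusted p under 0.05 there were 0 and 2 of the 10, where 22.1% and 19.4% of all genes were.

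Read next were 9 transcription factors of Kupffer cells: Nr1h3, Id3, Id1, Zeb2, Spi1, Irf8, Rbpj, Smad4 and Maf. In each of the 4 comparisons edgeR called 0 (3.29% to 9.65% of all genes) and DESeq2 called 0 (9.04% to 15.2%). At an unadjusted p under 0.05 there was 1 in WT NASH against WT chow (22.1% of all genes) and 0 in the others. Several of these factors are also made by hepatocytes or endothelium. Their median was -0.0054 in KO NASH against WT NASH and -0.15 against KO chow. Nr1h3, the oxysterol receptor LXR-alpha, was at 77.0, 69.3, 80.2, 60.5 and 73.4 CPM in WT NASH and 59.0, 90.2, 72.8, 78.0 and 59.0 CPM in KO NASH, groups that overlapped. The ligands of Csf1r, Csf1 and Il34, were not called by edgeR or DESeq2 in any comparison. In WT NASH against WT chow 1 of them had an unadjusted p under 0.05 (22.1% of all genes). Their range was -0.21 to 0.02 in KO NASH against WT NASH. Of 6 partners of C1q in the classical pathway (C1ra, C1s1, C2, C3, C4b and Serping1), made largely by hepatocytes, C1s1, a protease of the C1 complex, was lower in KO chow than in WT chow (-0.78, edgeR adjusted p = 0.0263, SE 0.199, called in 22 of 30 other settings), and 0 were called by edgeR in the other comparisons. DESeq2 called C1s1, C3 and C4b lower in KO NASH against WT NASH (15.2% of all genes in either direction). By edgeR 3 of the 6 were lower there at an unadjusted p under 0.05 (13.8% of all genes). In KO chow against WT chow DESeq2 called C1ra lower beside C1s1 (9.63% of all genes in either direction). The edgeR value of C1ra was -0.52 (edgeR adjusted p = 0.0682), and the groups did not overlap.

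Genes of other leukocytes and liver cells were read beside the markers, and their part in the marker differences was not tested. Over all genes, edgeR called 9.65% in KO NASH against WT NASH and 3.29% in KO NASH against KO chow. It called 5.93% in WT NASH and 5.53% in KO chow, each against WT chow. By DESeq2 these shares were 15.2%, 9.04%, 10.4% and 9.63% in that order. Of 9 general myeloid genes tested, with Aif1 at 0 counts in every library, 0 were called in KO NASH against WT NASH (median -0.53) or against KO chow (-0.68) by edgeR. At an unadjusted p under 0.05, 2 were lower and 1 was higher against WT NASH (13.8% of all genes were lower), and 3 were lower against KO chow (11.9%). DESeq2 called 1, Tyrobp, lower against WT NASH. Their summed level was 306 to 423 CPM in KO NASH, 288 to 1304 CPM in WT NASH and 300 to 1658 CPM in KO chow. Cd68, a lysosomal macrophage gene, was higher in WT NASH than in WT chow (1.01, edgeR adjusted p = 0.038, SE 0.281) and higher in KO chow than in WT chow (1.03, edgeR adjusted p = 0.036, SE 0.280). WT chow livers held 6.04, 14.5, 4.78, 7.50 and 3.46 CPM of it, WT NASH livers 14.1, 12, 16.9, 14.7 and 15.9 CPM, KO chow livers 10.6, 14.7, 19.8, 17.1 and 12.5 CPM and KO NASH livers 16.6, 14, 15.8, 13.1 and 17.6 CPM. Both calls were near the threshold, held in 18 and 20 of 30 other settings, and were lost once sex was a term (edgeR adjusted p = 0.214 and 0.0568). With sex and length slope terms together the call in KO chow held. The call in WT NASH was lost there (edgeR adjusted p = 0.0912). Over the 14 libraries of positive length slope the Cd68 values were 0.53 and 0.56 (edgeR adjusted p = 0.31 and 0.311). Among 6 genes of lipid-associated macrophages, Gpnmb (4.25, edgeR adjusted p = 0.00177, SE 0.757) and Lpl (2.59, edgeR adjusted p = 0.0176, SE 0.651) were higher in KO NASH than in WT NASH, while 3 of the 6 were negative and the median of all 6 was 0.43. Among 6 monocyte genes edgeR called Cx3cr1 higher (1.48, edgeR adjusted p = 0.0382, SE 0.439), but 4 of the 6 were negative, the median was -0.22 with a range of -1.82 to 1.48, and DESeq2 called Plac8 lower beside Cx3cr1 higher. Gpnmb was at 0.129, 0.415, 0.182, 2.06 and 0.323 CPM in WT NASH and 15.3, 3.80, 7.88, 5.08 and 16.2 CPM in KO NASH, which did not overlap, and its call held in 29 of 30 other settings, the exception being males alone, where WT NASH is 1 library. Lpl was at 25.9, 31.3, 48.1, 46.9 and 29.0 CPM in WT NASH and 519, 41.5, 52.8, 26.2 and 449 CPM in KO NASH, where replicates 1 and 5 stood far above the others. Without replicate 1 its value was 1.99 (edgeR adjusted p = 0.0618) and without replicate 5 it was 2.15 (edgeR adjusted p = 0.0561). Its call was also lost once sex was a term (1.71, edgeR adjusted p = 0.195), and with the replicate block. The Cx3cr1 call held in 19 of 30 settings and was lost once sex was a term (edgeR adjusted p = 0.117). Chil3 was called higher in KO chow than in WT chow (4.84, edgeR adjusted p = 0.0213, SE 1.18), a call that rested on KO chow replicate 5: without it the value was 1.62 (edgeR adjusted p = 0.134).

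Lymphoid and granulocyte genes were scarce. The median in KO NASH against WT NASH came to -0.91 for 3 B cell genes, -0.95 for 5 T cell genes (Cd3g called lower, edgeR adjusted p = 0.0371, in 19 of 30 other settings), -1.18 for 5 dendritic cell genes and -0.79 for 4 neutrophil genes; Ly6g, with 0 to 4 counts, was not tested. Their summed levels in KO NASH were 0.767 to 3.60, 2.36 to 7.22, 4.78 to 9.84 and 3.02 to 18.7 CPM, and in WT NASH 2.0 to 5.22, 6.0 to 16.9, 5.36 to 20.4 and 4.26 to 31.1 CPM. Against KO chow the B cell and neutrophil medians were -1.46 and -1.05 with 0 called by edgeR, while 2 B cell genes had an unadjusted p under 0.05 and DESeq2 called 2 lower (Cd79a and Ms4a1). The 7 genes of sinusoidal endothelium had a median of 0.36 against WT NASH, with Lyve1 called higher (1.62, edgeR adjusted p = 0.00866, SE 0.359, lost with sex as a term, at 0.0766, and in males alone, with 1 WT NASH library, at 0.166), and 0.20 against KO chow. The Lyve1 call held with sex and length slope terms together. Summed over the 7 genes, the level was 190 to 295 CPM in WT NASH, 241 to 317 CPM in KO chow and 222 to 357 CPM in KO NASH. Of 5 red blood cell genes, edgeR called the globin genes Hbb-bs and Hbb-bt lower in KO NASH against KO chow and in WT NASH against WT chow, and DESeq2 called 4 against KO chow (with Hba-a1 and Hba-a2) and the same 2 in WT. Hbb-bs was at 62.7, 34.3, 55.4, 93.7 and 71.2 CPM in KO chow and 11, 12.8, 15.5, 8.34 and 5.58 CPM in KO NASH, which did not overlap. The Hbb-bs calls held in 29 of 30 other settings each, the Hbb-bt call in 22 against KO chow, and the Hbb-bt call in WT was lost once sex was a term (edgeR adjusted p = 0.0951). That last call held with sex and length slope terms together. Alas2, the erythroid enzyme of haem synthesis, was not called and did not follow the globins, with 38.0, 34.6, 8.12, 37.6 and 8.08 CPM in KO chow and 34.1, 10.3, 37.8, 70.7 and 33.7 CPM in KO NASH. Its level split by sex: over all libraries it was at 6.52 to 10.5 CPM in females and 33.7 to 150 CPM in males. Against KO chow, edgeR called Col1a1 of 5 stellate cell genes and Sox9 of 4 cholangiocyte genes higher, in 22 and 21 of 30 other settings. Without KO NASH replicate 5 the edgeR adjusted p was 0.073 for Col1a1 and 0.0724 for Sox9, and DESeq2 called Col3a1 beside them. In WT NASH against WT chow edgeR called 1 T cell gene higher, Cd3e (2.15, edgeR adjusted p = 0.0188, SE 0.52), a call lost once sex was a term (edgeR adjusted p = 0.294), and DESeq2 called Cd3e and Cd8a.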

How the data were processed

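RNA of 20 mouse livers, 5 in each of 4 groups, was sequenced, and the authors deposited 1 table of whole-number counts of reads per gene. Reads were aligned with HISAT2 2.0.4 to GRCm38, per the submitters' processing notes. With the counting program, annotation and strand setting not given in the sources used here, reads of genes that overlap on opposite strands may not be told apart. The table's columns were matched to samples by name and its HFD columns were taken as the NASH diet groups, the only groups left to them. The labels number the mice of each group, so libraries were taken as separate mice.

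The raw counts of 46095 genes were filtered with edgeR's filterByExpr (minimum count 10), scaled by TMM and fitted with 1 coefficient per group over all 20 libraries in edgeR 4.0.16 (R 4.3.3). Quasi-likelihood p-values were adjusted by Benjamini-Hochberg over 14440 genes, and an adjusted p under 0.05 is a call. The common biological coefficient of variation was 39%. Totals ran from 9958935 to 20601955 counts, and depth limits only the rarest genes. Ratios of 2 markers were taken as log2 of counts plus 0.5 and tested by exact permutation, adjusted over 8 tests. Gene lengths came from GENCODE M21 and matched 93.33% of genes. A library was called male where its Y-linked genes held over 100 counts. The fit was tested on simulated data.

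All 10 markers are named. From each further list up to 3 called genes are named per comparison, and the 5 genes most like Clec4f and C1qa. The markers and lists were chosen with earlier results of these data known. Some genes of these lists are not reported here, and the list counts and medians leave them out. Alternatives were RLE scaling, no filter, DESeq2 1.42.0, the replicate number, sex or length slope as terms, males alone, each library left out in turn and a pseudocount of 5. Those limited to 14 libraries or summing KO NASH replicates 1 and 5 were added after the data were seen. These 2 libraries were the most alike within a group (chi-square per degree of freedom 8.06, other pairs within a group 21.1 to 455) but differed beyond sampling noise and were kept apart. Pairs across groups were not compared in this way.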

Additional observations from a re-analysis of the deposited data

Results flagged for a closer look

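In 14 of 48 sets of 5 libraries, 1 library stood so far from its nearest neighbour that the gap took up more of the group's range than the 95% limit of Dixon's test (0.71) allows. The limit is passed in about 1 of 20 sets of normally distributed values. The CPM were not log-transformed for this test, so 14 of 48 cannot be set against that rate. Neighbouring genes are also not independent. WT NASH replicate 4, the single male of its group, stood highest for C1qa at 235 CPM, C1qb at 232 CPM, C1qc at 252 CPM and Vsig4 at 203 CPM. WT chow replicate 4 stood highest for C1qb at 302 CPM, C1qc at 311 CPM and Vsig4 at 216 CPM. Both libraries are of negative length slope.

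WT chow replicate 2 stood highest for Marco at 205 CPM and Timd4 at 36.8 CPM, and its log2 ratio of Timd4 to Clec4f was -1.71. KO chow replicate 5 stood highest for Adgre1 at 154 CPM and lowest for the log2 ratio of Clec4f to Adgre1 at 0.24. KO chow replicate 3 stood highest for Csf1r at 116 CPM, and KO NASH replicate 4 stood lowest for C1qb at 34.9 CPM. KO chow replicate 5 is of negative length slope, and WT chow replicate 2, KO chow replicate 3 and KO NASH replicate 4 are of positive slope.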

How the results depend on the processing

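Sex (1 male in WT NASH, 4 in KO NASH) and length slope differ between the groups, which limits every comparison here. The count of markers called in KO NASH against WT NASH, 1 by edgeR's quasi-likelihood test, was 2 by DESeq2, 2 over the libraries of positive slope (Vsig4 and C1qc), 0 with a sex term and 0 with KO NASH replicates 1 and 5 summed; leaving out single libraries gave 0 to 1. In males alone it was 2, Vsig4 and C1qc, but WT NASH is then 1 library, replicate 4, assumed to vary like the others, and stands highest for both genes. With sex and length slope terms together, Timd4 kept its call against WT NASH. Against KO chow, 0 became 2 by DESeq2 and 1 with sex and slope terms, and 0 to 1 with single libraries left out. Both comparisons with WT chow gave 0 to 1 with single libraries left out.

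Signs changed for Marco and Csf1r, never past the threshold. Marco in WT NASH against WT chow gave 0.45 with the replicate block and -1.55 to 2.32 with single libraries left out. In KO chow against WT chow it gave -2.38 over the libraries of positive slope and -0.14 to 3.10 with single libraries left out. Csf1r in males gave 0.20 against WT NASH and 0.083 against KO chow, the latter -0.24 to 0.040 with single libraries left out. The cause was not tested. Of 720 alternative values of the other marker differences, 69 changed sign and 0 were called.

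The log2 ratio of Timd4 to Clec4f in KO NASH lost its call against KO chow in males (-0.76) and over the libraries of positive slope (-0.73), and against WT NASH over the latter (-0.69), with fewer libraries tested. In each of these subsets every KO NASH library still lay below the other group, and the unadjusted p was the smallest attainable. The lost calls therefore cannot show a dependence on the processing. Ratios with WT NASH were not run in males, since that group holds 1. Leaving out single libraries gave -0.79 to -0.58 against KO chow, -0.97 to -0.69 against WT NASH and -0.036 to 0.60 for KO chow against WT chow. Over the libraries of positive slope, WT NASH and KO chow differed from WT chow by -0.63 and -0.59. For Clec4f to Adgre1 those libraries gave 0.71 in WT NASH and 0.85 in KO chow against WT chow and -0.24 in KO NASH against KO chow, which was -0.14 in males. Leaving out single libraries gave -0.46 to 0.17, -0.73 to 0.057 and -0.17 to 0.38 for these 3 comparisons and -0.15 to 0.0033 for KO NASH against WT NASH.

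The labels number replicates alike across groups. Same-numbered libraries correlated at -0.405 to 0.518 (13 of 30 pairs over 0.1). No pairs of unlike number were examined, so whether libraries of the same number share a batch was not tested. With the replicate block 0 markers were called between KO NASH and WT NASH; the Timd4 to Clec4f differences were -0.82 and -0.69, each at adjusted p = 0.25 by exact sign flips of 5 pairs, a number of pairs too small for any p under 0.05.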
